A study of Taeniopygia guttata with 169 samples.

Results

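Zebra finches fed methylmercury (MeHg, an organic form of mercury that builds up through food chains) were compared here at 2 ages. The step was day 90 against day 35, the last of the age series, in RNA sequencing of whole bone marrow. No label links a bird across the ages, so they were compared between birds. The MeHg libraries of these 2 ages were taken by their labels, 21 of day 90 and 21 of day 35, which makes 42 of the 83 MeHg libraries analysed, beside 78 control libraries. A further MeHg female of day 90, which stood apart from its group, was left out by the rule that set this comparison, and values with it are given where it moved a count. MeHg birds had 1.2 ppm in their food, a dose called sublethal by the submitters, who bred birds with differing exposure histories and asked how the blood-forming system responds. The day 90 MeHg group held 7 females and 14 males, and the day 35 MeHg group 10 females and 11 males. At each of these ages 8 MeHg birds belonged to cohort 1 and 13 to cohort 2. Control birds without MeHg in the food, 21 of day 90 (10 females, 11 males) and 19 of day 35 (10 females, 9 males), served as the comparison, and birds of day 6 and day 18 were used to follow the same genes at younger ages. Exposure before hatching, the source of each bird's parents and the meaning of the cohorts are not given in the labels. Within MeHg birds, age and the length of exposure cannot be told apart.

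Bone marrow is where red cells, thrombocytes (the nucleated counterpart of platelets), granulocytes and monocytes of birds are made, from stem and progenitor cells held among bone, fat and vessels. The finch is a nestling at the youngest of these ages, fledges at about the next, and is sexually mature by the oldest, and its marrow changes over that time in the cells it makes and in the bone and fat around them. Methylmercury binds thiol and selenol groups of proteins and is known for its toxicity to nerve cells. The genes measured carry Ensembl identifiers that could not be paired with symbols here, so neither their functions nor the marrow's cell types could be read from markers. In bulk marrow, fewer cells of a type and less RNA per cell cannot be told apart.

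The MeHg libraries held 5344700 to 14549797 assigned reads at day 90 (median 7675102) and 4962057 to 12445263 at day 35 (median 7587114). Totals, RNA integrity and the share of counts in the 3 most abundant genes overlapped between the ages. That share averaged 14.6% at day 90 and 16.0% at day 35, and RNA integrity 8.81 (16 libraries) and 8.89 (18 libraries). The lowest of the 3 permutation p-values was 0.361 (two-sided, 100000 resamples), and the adjusted p was 0.687 for each. Values are normalised read counts, that is reads divided by 1 size factor per library. Fold changes are differences of log2(value + 1), which understates the change of weakly expressed genes. A gene was called where limma, with sex, cohort and plate as covariates, gave an adjusted p under 0.05. Each library was counted as 1 bird, which no label states outright, and the p-values rest on how far libraries of one group spread.

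Age accounted for more of the main variation among MeHg birds than sex or cohort did. Plate and extraction batch took larger shares, but such shares grow with the number of levels. The first principal component of the 42 libraries held 14.7% of the variance. Age alone accounted for 28.2% of that component, sex for 10.1%, cohort for 3.94%, plate (9 levels) for 36.8% and extraction batch (17 levels) for 58%. Day 90 MeHg birds lay between -43 and 38.9 on it, with a median of 23.4, and day 35 MeHg birds between -69.0 and 20.1, with a median of -10.7 (permutation p = 0.00033, two-sided, 100000 resamples). Of 21 day 90 birds, 17 lay above the day 35 median, and 9 lay at or below the highest day 35 bird. The ages thus differed in their centre, and their ranges overlapped widely. Of the second component, with 8.45% of the variance, age accounted for 3.89% and plate for 70%.

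**Figure D1:**
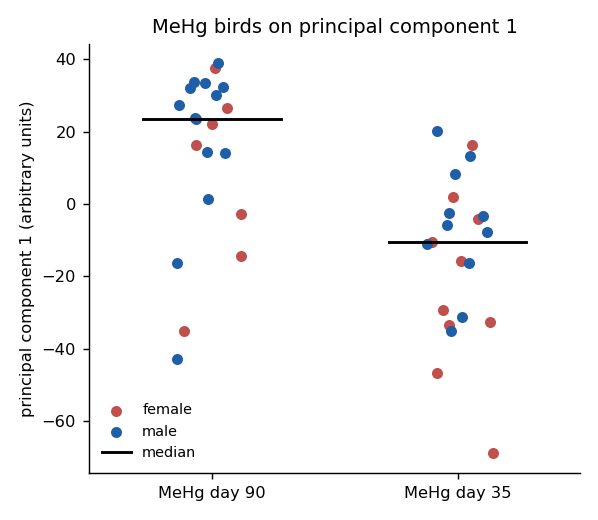
MeHg birds on the first principal component (arbitrary units) of 13370 genes, day 90 left and day 35 right, with 1 point per bird and a line at the median. The day 90 birds centre at 23.4 and the day 35 birds at -10.7, and 4 day 90 birds, of both sexes, lie below the day 35 median.

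Most genes called between day 35 and day 90 in MeHg birds rose, while 50% of all tested genes had a positive log2 fold change. Of 13370 genes tested 663 were called (4.96%), 544 higher at day 90 (4.07%) and the rest lower (0.89%). The rising genes gained more than the falling genes lost: their median log2 fold change was 0.70 (25% of them under 0.46 and 25% over 1.09), against -0.32 (from -0.44 to -0.24) among the falling genes, while the median of all tested genes was -0.00. At least 2-fold changes were found in 181 called genes, all but 14 of them higher at day 90. At an unadjusted p under 0.05 there were 2772 genes (20.7%). By edgeR 647 genes were called, 499 of them higher at day 90. DESeq2 and voom called more genes with a weaker lean upward, DESeq2 1046 (709 up, 337 down) and voom 1567 (958 up, 609 down). The count moved with single libraries, and leaving out each of the 42 in turn gave 496 to 1450 genes. The count was 268 (231 up, 37 down) with the distant day 90 female put back. It rose to 1073 (766 up, 307 down) without day 90 replicate 15, a male, and to 1450 (951 up, 499 down) without day 35 replicate 19. In these 2 fits the lean upward was weaker too.

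Rising and falling genes sat at different expression levels. The median level (mean log2 over the 42 birds) was 7.02 for the rising genes, 8.79 for the falling genes and 7.59 for all tested genes. With all genes put into 4 bins of equal size by level, 5.06% rose and 0.449% fell in the lowest bin, and 2.96% rose and 1.68% fell in the highest. The smallest change that passes the test differs between levels, so these shares describe the calls. In the lowest bin the median change was 1.1 for rising and -1.03 for falling genes, and in the highest 0.42 and -0.26.

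**Figure D2:**
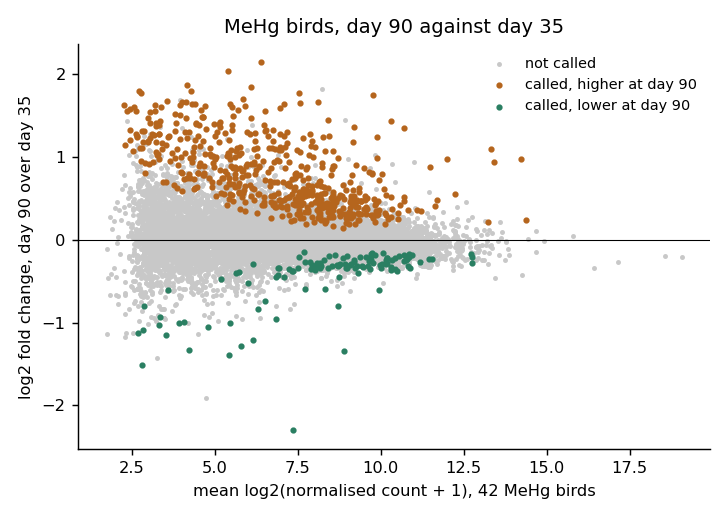
Log2 fold change from day 35 to day 90 in MeHg birds against the mean level of each gene, log2(normalised count + 1), for 13370 genes; brown points are the 544 genes called higher and green points those called lower at day 90. Falling genes gather at high levels with small changes (median -0.32), and rising genes spread over all levels with larger ones (median 0.70).

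No tested gene separated the ages bird by bird. The lowest bird of one age lay above the highest of the other in 0 of 13370 tested genes. The same count was 0 of 663 among called genes. Summed over genes the shift was plainer. The mean log2 level of the 544 rising genes ranged from 6.44 to 7.82 (median 7.26) in day 90 MeHg birds and from 5.63 to 7.03 (median 6.45) in day 35 MeHg birds, and 5 day 90 birds lay below the highest day 35 bird. For the falling genes it ranged from 7.99 to 8.41 (median 8.16) at day 90 and from 8.18 to 8.82 (median 8.6) at day 35, with 8 day 90 birds above the lowest day 35 bird. These genes were chosen on these birds, so the means describe the calls and support nothing further. The day 90 female left out of the fit had a mean of 5.32 for the rising genes, below every MeHg bird of both ages, and 8.28 for the falling genes, within the day 90 range. In it the 3 most abundant genes took 25.7% of counts.

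The rising genes varied more between birds of one age than genes in general. Their median SD on the log2 scale was 0.58 among day 90 MeHg birds and 0.59 among day 35 MeHg birds, against 0.41 at both ages for all tested genes and 0.32 and 0.34 for the falling genes. The sets were not matched for expression level, which had a median of 7.02 for rising, 7.59 for all tested and 8.79 for falling genes. Once age, sex, cohort and plate were taken out, pairs of rising genes still went together across the 42 birds, with a median correlation of 0.31 and 90.7% of pairs positive. Pairs of falling genes had a median of 0.20, a rising with a falling gene -0.23, and all tested genes -0.00. These correlations are across birds that share plates and extraction batches, and are a description. The sets were called on these same birds, and genes that vary together tend to be called together, which by itself favours such correlations.

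The genes described next are the 2 with the largest rise and the 2 with the largest fall. They were taken from called genes with a mean log2 level of at least 5 and 1 direction in both sexes and both cohorts. That last condition was met by 650 of the 663 called genes, and both conditions by 510, of which 406 rose. The sexes and cohorts are parts of the birds that called the genes, so 1 direction is partly fixed by the choice. ENSTGUG00000000116 had the largest rise. Its normalised counts had a lowest, median and highest value of 28.8, 232 and 775 in day 90 MeHg birds and 5.42, 25.4 and 594 in day 35 MeHg birds. Every day 90 bird lay above the day 35 median of both sexes together, although only 3 exceeded the highest day 35 bird. Among females alone the day 35 median was 49.2, and the lowest day 90 females, with 38.1 and 42.8, lay below it. The log2 fold change was 2.14 ± 0.56 (SE; limma, adjusted p = 0.0185). By edgeR it missed the threshold, with a log2 fold change of 1.72 (adjusted p = 0.0927).

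ENSTGUG00000008939 rose as well. It had 25.9, 73.9 and 231 normalised counts (lowest, median, highest) in day 90 MeHg birds, against 4.18, 17.8 and 126.3 in day 35 MeHg birds. Again every day 90 bird lay above the day 35 median, and 6 exceeded the highest day 35 bird. The day 90 female left out had 8.29, below the day 35 median. The log2 fold change was 2.04 ± 0.34 (SE; limma, adjusted p = 0.000284). This gene was nearly silent in the youngest birds, with a median of 0 at day 6 in MeHg and in control birds, and of 7.31 in MeHg and 1.99 in control birds at day 18.

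The largest fall was that of ENSTGUG00000006579. Day 90 MeHg birds had 9.27, 100.7 and 232 normalised counts (lowest, median, highest) and day 35 MeHg birds 93.4, 330 and 1073. All 21 day 90 birds lay below the day 35 median, and 9 lay below the lowest day 35 bird. The log2 fold change was -2.30 ± 0.31 (SE; limma, adjusted p = 1.88e-05). Over the whole age series this gene went up before it went down: at day 6, 18, 35 and 90 its medians were 34.4, 466, 330 and 100.7 in MeHg birds and 28.2, 448, 364 and 79 in control birds.

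ENSTGUG00000022429 fell as well, with 4.12, 30.5 and 69.6 normalised counts in day 90 MeHg birds and 13.9, 62.5 and 207 in day 35 MeHg birds. Of the day 90 birds 19 lay below the day 35 median and 2 above it. The log2 fold change was -1.39 ± 0.24 (SE; limma, adjusted p = 0.000597). Its medians at the younger ages, 81.3 at day 6 and 79.7 at day 18 in MeHg birds, were above that of day 35. In control birds they were below it, with 55.1 at day 6 and 51.5 at day 18 beside 87.9 at day 35.

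**Figure D3:**
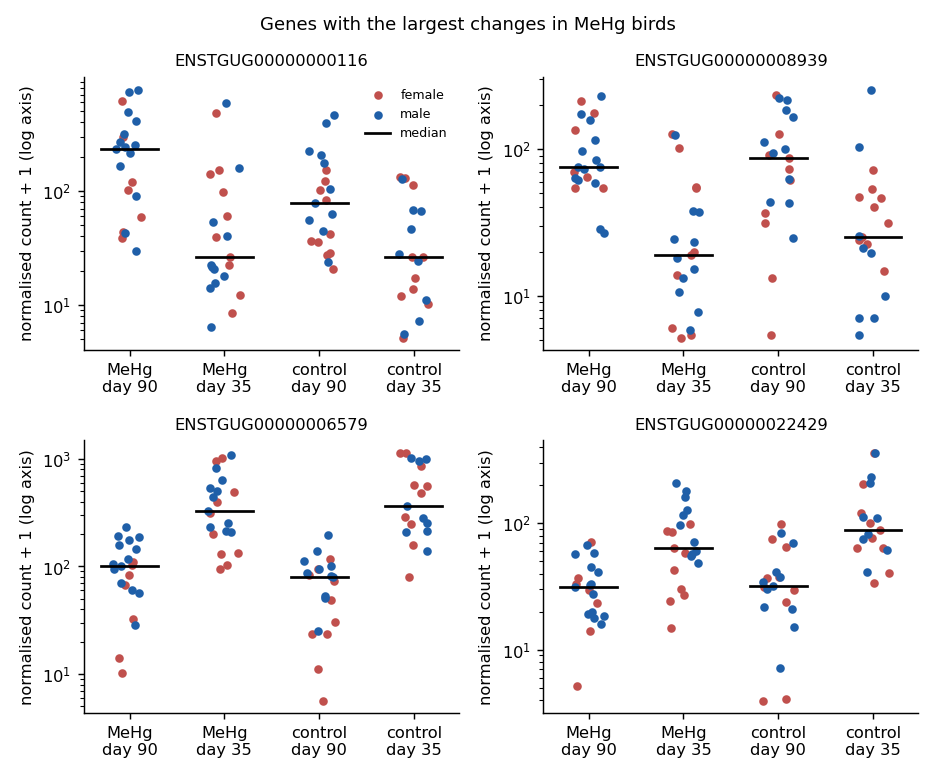
Normalised counts + 1 (log axes) of the genes with the largest rises (top row) and falls (bottom row) in MeHg birds, with 1 point per bird, red for females and blue for males, and a line at the median, for MeHg day 90, MeHg day 35, control day 90 and control day 35. The median of ENSTGUG00000006579 is 100.7 in day 90 and 330 in day 35 MeHg birds, and 79 in day 90 and 364 in day 35 control birds.

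The changes were also seen within plates. On the 5 plates that held at least 2 MeHg birds of each age, the day 90 minus day 35 difference had a median of 0.36 to 0.90 over the rising genes and of -0.40 to -0.25 over the falling genes, beside -0.01 to 0.01 over all tested genes. The birds are those that chose the genes, in a fit with plate as a covariate, so the direction is partly fixed by the choice. ENSTGUG00000000116 differed by 0.61 to 2.72 and ENSTGUG00000008939 by 0.83 to 2.96, ENSTGUG00000006579 by -4.13 to -0.97 and ENSTGUG00000022429 by -2.45 to -0.24 on these plates. Each of the 4 genes thus kept its sign on every one of the 5 plates, with wide differences in size. Extraction batch in place of plate gave 787 called genes.

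The same step in control birds, fitted on other libraries, shows these ages without MeHg in the food. It called 30 of 13370 genes (0.224%), 21 higher (0.157%) and 9 lower (0.0673%) at day 90, with 1424 at an unadjusted p under 0.05. Of the 21 control genes called higher 20 were also called higher in MeHg birds, and of the 9 called lower 8 were also called lower. Of all tested genes 4.07% were called higher and 0.89% lower in MeHg birds. Seen from the other side, 485 of the 544 genes that rose in MeHg birds (89.2%) had a positive log2 fold change in controls, where 47.5% of all tested genes did. Among the genes that fell, 84.9% were negative in controls, where 52.5% of all tested genes were. The median control change was 0.29 for the rising and -0.12 for the falling genes. The MeHg medians of 0.70 and -0.32 are larger partly because the genes were chosen by them, so the sizes in the 2 treatments cannot be set against each other.

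Whether the step differed with MeHg was tested directly, and no gene was called (limma; the smallest adjusted p was 0.443, and 1308 genes, or 9.78%, had an unadjusted p under 0.05). The edgeR and DESeq2 tests called 0 as well, although only 668 genes kept an adjusted p in DESeq2, and voom called 15. A count of 663 in MeHg birds beside 30 in controls therefore does not show a larger step with MeHg. The libraries also entered unequally: the most distant day 90 MeHg female was left out, while 2 day 90 control females that also stood apart (replicates 15 and 16) stayed in. Without those 2 the control step called 84 genes, 67 higher and 17 lower. Single libraries moved it too, down to 6 genes without control day 35 replicate 2 and up to 47 without control day 90 replicate 20. The median SE was 0.11 in the MeHg fit and 0.14 in the control fit.

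The genes with the largest falls and rises showed this side by side. ENSTGUG00000006579 had 4.62, 79 and 196 normalised counts (lowest, median, highest) in day 90 controls and 78.6, 364 and 1135 in day 35 controls, which on the log2 scale is a step of -2.88 ± 0.38 (SE; limma, adjusted p = 0.000103). The step in MeHg birds minus that in controls was 0.74 (95% interval -0.22 to 1.71; adjusted p = 0.583). ENSTGUG00000022429 also fell in controls, by 1.93 ± 0.39 on the log2 scale (SE; limma, adjusted p = 0.0261), and the MeHg minus control difference was 0.64 (-0.22 to 1.51; adjusted p = 0.598).

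Neither of the top rising genes was called in controls. ENSTGUG00000000116 had a lowest and median value of 19.7 and 78.2 normalised counts in day 90 controls and 4.18 and 25.3 in day 35 controls, which on the log2 scale is a step of 1.39 ± 0.49 (SE; limma, adjusted p = 0.319). For ENSTGUG00000008939 the medians were 86.5 (4.37 to 232) in day 90 controls and 24.3 (4.39 to 254) in day 35 controls, with 1.46 ± 0.47 (SE; limma, adjusted p = 0.254). The MeHg minus control differences were 0.68 (95% interval -0.70 to 2.05; adjusted p = 0.727) and 0.63 (-0.44 to 1.69; adjusted p = 0.672). These intervals hold 0 and also hold differences of more than 1 log2 unit, so the data show neither a difference nor its absence.

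**Figure D4:**
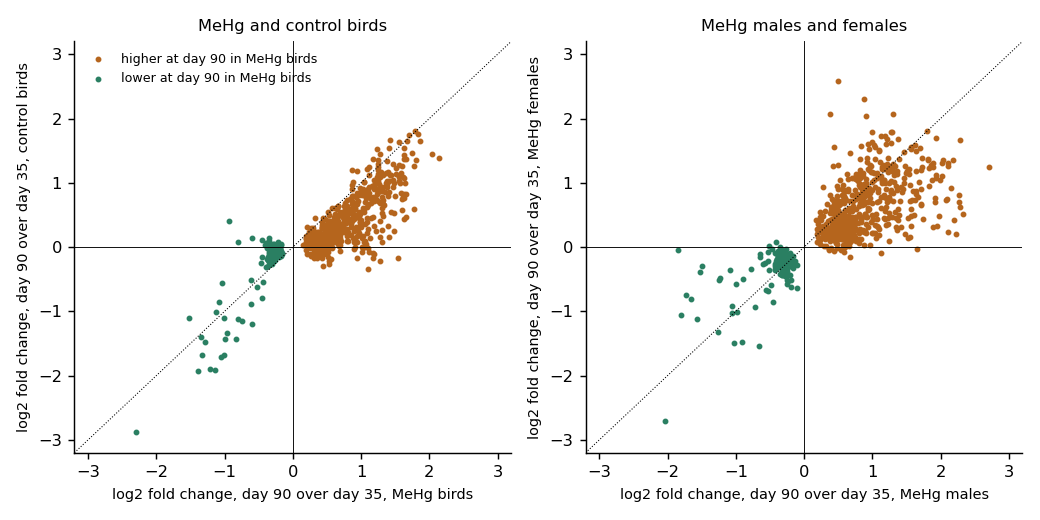
Log2 fold changes (day 90 over day 35) of the 663 genes called in MeHg birds, brown for those higher and green for those lower at day 90: in control birds (y) against MeHg birds (x) on the left, and in MeHg females (y) against MeHg males (x) on the right, with a dotted line where both are equal. Of the brown genes 485 of 544 are above 0 in controls and 534 of 544 in MeHg females; they were chosen by the MeHg values.

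Younger control birds, none of which entered the MeHg fit, showed how the same genes had moved earlier. From day 18 to day 35, 342 of the 544 rising genes (62.9%) were already called upward in controls and 2 downward, where 14.6% of all tested genes were called upward. Of the falling genes 50 (42%) were called downward and 0 upward, where 13.4% of all tested genes were called downward. The median change of that earlier step was 0.59 for the rising, -0.21 for the falling and 0.03 for all tested genes. The first step, from day 6 to day 18, was less one-sided. In controls it called 42.5% of the rising genes upward and 19.7% downward, where all tested genes gave 30.5% and 28%. Of the falling genes it called 29.4% upward and 27.7% downward. MeHg birds had 41.2% of the rising genes upward and 13.4% downward in that first step, where all tested genes gave 26.4% and 24.8%.

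Over all 4 ages of control birds the rising genes were thus mostly late genes. Day 90 had the highest of the 4 control medians in 416 of the 544 (76.5%), against 23.2% of all tested genes. In 285 (52.4%) the medians went up at every step, against 11.1% of all tested genes. A day 6 control median under 5 normalised counts was found in 19.1% of them, against 3.89% of all tested genes. Genes were tested only where MeHg birds of day 35 and day 90 expressed them, so genes expressed only early are missing. The rising genes were also weaker (median level 7.02 against 7.59 for all tested genes), which by itself favours a low day 6 median. The falling genes were mostly early genes in controls: 95% had their highest control median at day 6 or day 18 (63.5% of all tested genes), and in 72 of them (60.5%) the lowest was at day 90 (22.7% of all tested genes). Their medians went down at every step in 23.5%, against 8.84% of all tested genes. The day 90 and day 35 controls enter these counts, so they are not independent of the control step above, but no MeHg bird enters them.

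The mean level of these sets by bird is given for both treatments. Mean log2 levels of the 544 rising genes at day 6, 18, 35 and 90 had medians of 5.31, 5.93, 6.45 and 7.26 in MeHg birds, and of 5.45, 5.83, 6.46 and 6.99 in controls. Those of the falling genes had medians of 8.86, 8.86, 8.6 and 8.16 in MeHg birds and of 8.85, 8.82, 8.64 and 8.28 in controls. At day 90 the birds overlapped: rising genes lay between 6.44 and 7.82 in MeHg birds and between 5.61 and 7.71 in controls. The genes were chosen for being far from day 35 in day 90 MeHg birds, which by itself favours a gap from day 90 controls.

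**Figure D5:**
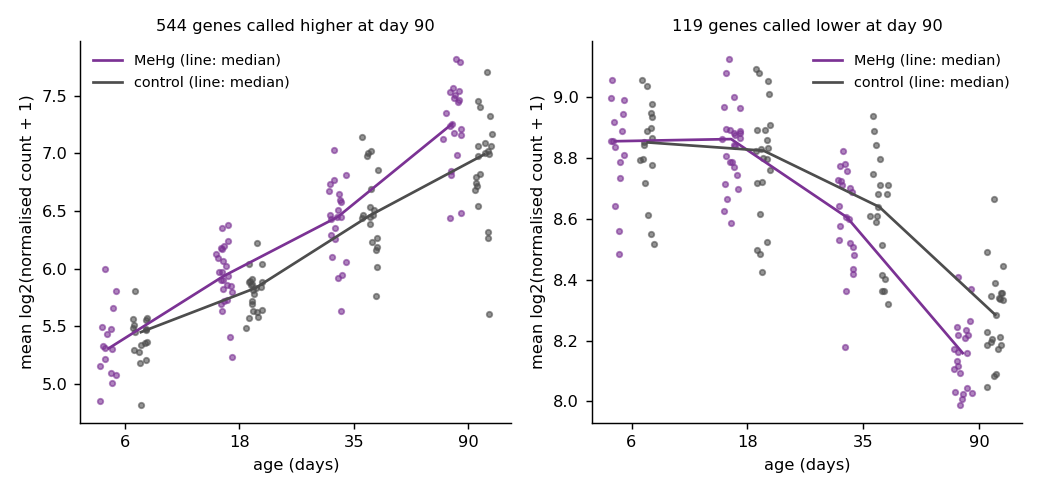
Mean log2(normalised count + 1) per bird of the 544 genes called higher (left) and of those called lower (right) at day 90 in MeHg birds, at 4 ages spaced evenly on the axis, with 1 point per bird and lines through the medians, purple for MeHg and grey for control. Rising genes climb from a median of 5.31 at day 6 to 7.26 at day 90 in MeHg birds, and falling genes hold at 8.86 until day 18 and then decline to 8.16.

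Males and females of the MeHg group were then compared in their step. In males 628 genes were called (4.7%), 447 higher (3.34%) and 181 lower (1.35%) at day 90, and in females 2 (0.015%), with 1509 at an unadjusted p under 0.05. The fit was less precise in females, with a median SE of 0.19 against 0.15 in males. The medians of the 544 rising genes were 0.76 in males and 0.52 in females, and those of the falling genes -0.35 and -0.28. These genes were chosen on the same birds, more of them male than female, so the medians cannot be set against each other. The difference between the sexes was tested itself and called 1 gene (0.00748%), with 1469 at an unadjusted p under 0.05. For this difference edgeR called 2 genes, DESeq2 48 and voom 440 (males minus females positive in 198 and negative in 242), and limma called 34 with the distant day 90 female put back. How many genes differed between the sexes in their step thus depended on the tool, and the larger count in males is not by itself a test of it.

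That gene, ENSTGUG00000010932, had estimates of opposite sign in the sexes. MeHg males had 179, 302 and 461 normalised counts (lowest, median, highest) at day 90 and 139.1, 255 and 320 at day 35. MeHg females had 152.4, 262 and 340 at day 90 and 207, 342 and 427 at day 35. The ranges overlapped within each sex. Males gained 0.49 ± 0.12 on the log2 scale (SE; limma, adjusted p = 0.0143), and the estimate in females was -0.78 ± 0.16 (SE; limma, adjusted p = 0.0692). The step in males minus that in females was 1.27 ± 0.21 (SE; 95% interval 0.85 to 1.70; limma, adjusted p = 0.00967). The call was lost with extraction batch in place of plate (adjusted p = 0.143), with RNA integrity added (adjusted p = 0.083) and without covariates (adjusted p = 0.284). Over both sexes its log2 fold change was -0.01.

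Control birds gave a value of similar size for this gene, on other libraries. The step in control males minus that in control females was 1.24 ± 0.36 (SE; 95% interval 0.52 to 1.97; limma, unadjusted p = 0.00146, adjusted p = 0.0772), with 0.38 in males and -0.86 in females. Without the 2 distant day 90 control females it was 1.07 ± 0.34 (SE; limma, unadjusted p = 0.00348, adjusted p = 0.192). In control birds 0 of 13370 genes were called for this difference, with 3021 at an unadjusted p under 0.05 by limma. Without the 2 distant females 0 were called and 2029 had an unadjusted p under 0.05. Low unadjusted p-values were thus common for this difference in controls. In controls the medians were 176 (day 90) and 320 (day 35) in females and 271 (day 90) and 195 (day 35) in males.

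The 2 genes called in MeHg females, chosen for description after their values were seen, were ENSTGUG00000024504 and ENSTGUG00000020023. ENSTGUG00000024504 had 76.5, 181 and 402 normalised counts in day 90 MeHg females and 7.55, 29.8 and 154.3 in day 35 MeHg females, which gave 2.58 ± 0.47 on the log2 scale (SE; limma, adjusted p = 0.0471). ENSTGUG00000020023 had 47.7, 117.2 and 159.4 in day 90 MeHg females and 4.32, 27.4 and 39.2 in day 35 MeHg females, which gave 2.07 ± 0.39 on the log2 scale (SE; limma, adjusted p = 0.0471). The day 90 female left out had 33.2 for ENSTGUG00000020023, inside the range of the day 35 females, so with it the ages overlap. Males had 0.50 and 0.39 for these genes, and the adjusted p of the difference between sexes was 0.253 and 0.265. In control females the medians at day 90 and day 35 were 82.5 and 96.7 for ENSTGUG00000024504. For ENSTGUG00000020023 they were 67.5 and 64.9. The log2 fold changes in control females were 0.18 ± 0.38 and 0.12 ± 0.30 (SE, limma). Without the 2 distant day 90 control females they were 0.37 and 0.30. Whether the step of females differed between MeHg and control birds was not tested. Over both sexes the MeHg minus control difference had an adjusted p of 0.492 and 0.478 (limma).

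The cohorts, whose meaning the labels do not give, each showed part of the step. Cohort 1 had 90 called genes (0.673%), 85 higher and 5 lower at day 90, and cohort 2 had 93 (0.696%), 81 higher and 12 lower. Of these 29 were called in both cohorts in the same direction and 0 in opposite directions. The median of the 544 rising genes was 0.64 in cohort 2 and 0.78 in cohort 1, and that of the falling genes -0.31 in each. These genes were chosen on the same birds, so the medians describe the calls. The test of the difference between cohorts called 0 genes by limma (the smallest adjusted p was 0.11, and 455, or 3.4%, had an unadjusted p under 0.05). The edgeR test called 0, DESeq2 2 and voom 1.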

How the data were processed

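Per the labels' protocols, RNA of bulk marrow was extracted with RNAzol RT, messenger RNA was selected on oligo(dT) beads, and NEBNext Ultra II reagents were used for the libraries. Per the submitters' processing notes, featureCounts, Subread, DESeq2 1.30.1 and R 4.0.2 were used. Build, annotation and strandedness were not given in the sources used here. Genes that overlap, lie antisense or have near-identical copies may therefore share reads. The deposited table holds a normalised signal, read counts that the authors divided by a size factor, 1 for each library (0.574 to 1.75); dividing each library by its lowest value above 0 gave whole reads for 100% of values (relative tolerance 1e-06). It has 17292 genes and 161 of 169 labelled libraries; the other 8 were not analysed here.

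The test was limma 3.58.1 (trend, robust variances; R 4.3.3) on log2(value + 1), over the 13370 genes that reached a value of 10 in 10 or more of the 42 MeHg libraries, Benjamini-Hochberg adjusted; edgeR 4.0.16, DESeq2 1.42.0 and voom on recovered reads were alternatives. The fit has 30 residual degrees of freedom over 9 plates. Differences of steps were interaction contrasts. The p-values given treat libraries as independent, although titles share 13 codes, of which the largest holds 8 birds; their meaning is not stated. An alternative that let birds of one code and cohort be correlated (a random effect) called 728 genes for the MeHg step. Pairs of libraries of one group all differed by far more than sampling noise (lowest chi-square per gene 15.5 at day 90, 12.9 at day 35). The reference table of genes paired 0 identifiers with a symbol, so the gene and marker lists could not be used. Named genes are the 2 rising and 2 falling called genes with the largest change, a mean log2 level of at least 5 and 1 direction in both sexes and cohorts, and, for interactions, the called genes with the smallest p. Members, lists and tests were chosen with earlier results of these data known; the younger control ages and the control sex difference were added after the MeHg step was seen. The fits were also run on simulated counts, drawn gene by gene without plate, sex, cohort or code effects. That simulation does not bear on such effects or on genes that vary together.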

Additional observations from a re-analysis of the deposited data

Results flagged for a closer look

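The step of ENSTGUG00000010932 differed between the sexes of the MeHg birds, by the test of that difference itself. Its log2 fold change from day 35 to day 90 was 0.49 in males and -0.78 in females, and males minus females gave 1.27 ± 0.21 (SE; limma, adjusted p = 0.00967). It was the one gene of 13370 called. It missed the threshold with extraction batch in place of plate (1.52, adjusted p = 0.143), with RNA integrity added (1.28, adjusted p = 0.083) and without covariates (0.83, adjusted p = 0.284). With the distant day 90 MeHg female put back it was 1.49 (adjusted p = 0.00185). The adjusted p ranged from 3.33e-05 to 0.284 over 56 alternatives, and the sign was positive in each. The day 90 MeHg females numbered 7. In control birds, on other libraries, males minus females gave 1.24 ± 0.36 (SE, limma, unadjusted p = 0.00146, adjusted p = 0.0772). Without the 2 distant day 90 control females it was 1.07 ± 0.34 (SE, limma, adjusted p = 0.192).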

How the results depend on the processing

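The 663 genes of the MeHg step became 526 to 787 under 11 of 19 other settings and 452 on the libraries with a labelled RNA integrity. It was 1046 by DESeq2 (709 up, 337 down), 1567 by voom (958 up, 609 down), 268 with the distant day 90 female put back, 1093 in males alone (666 up, 427 down), 14 in females alone, 54 in cohort 1 alone and 8 in cohort 2 alone, fits with fewer libraries. The share of calls that were upward, 82.1%, was thus lower by DESeq2, by voom and in males alone. It was also lower by limma without day 90 replicate 15 (766 up, 307 down) and without day 35 replicate 19 (951 up, 499 down). Leaving out each library in turn gave 496 to 1450. The control step called 0.224% of tested genes, but 0.18% with a minimum of 50, 0.0673% by edgeR, 0.957% by DESeq2, 0.95% by voom, 0.524% without covariates, 0.015% on libraries with RNA integrity, 0.0449% with it added, 0.628% without the distant females, 0.95% in 1 fit of all groups, and 0.0449% (without control day 35 replicate 2) to 0.352% (without control day 90 replicate 20) with libraries left out in turn, 13 of 40 of which moved it by over 1.5 times. The test of MeHg against control steps called 15 genes by voom, and 0 with each library left out in turn. For the sexes the count of 1 was 2 by edgeR, 48 by DESeq2, 440 by voom, 34 with the distant female, and 0 without covariates, with extraction batch or with RNA integrity added (1 to 2 with libraries left out); for the cohorts it was 2 by DESeq2, 1 by voom and 0 to 1. The cause of these changes was not tested. The 4 named genes kept their sign under each of 61 alternatives and missed the threshold in 1 to 4 of them, mostly in females or 1 cohort alone. The share of rising genes called upward in younger controls was 56.1% to 67.7%, and that of falling genes called downward 41.1% to 52.2%, under 3 settings chosen after seeing the data. No paired analysis was possible because the replicate numbers follow accession order and pair no birds.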
